A study of Mus musculus with 25 samples.

Results

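Mural cells wrap the endothelial tube of blood vessels. They comprise the pericytes of capillaries and the smooth muscle cells of larger vessels. The 8 genes described here mark both kinds, and were taken by symbol from the gene column of both deposited tables. *Rgs5*, a regulator of G protein signalling, *Pdgfrb*, the receptor for platelet-derived growth factor B, *Cspg4*, the proteoglycan NG2, and *Abcc9*, the regulatory subunit of a vascular potassium channel, are called pericyte genes below. *Acta2*, smooth muscle actin, *Myh11*, smooth muscle myosin heavy chain, *Tagln*, transgelin, and *Cnn1*, calponin, are called contractile genes. The long-term table listed 8 of the 8 among 15315 genes. The short-term table listed 7 of the 8 among 14007 genes and did not list *Cnn1*.

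Pericytes are drawn to new vessels by endothelial platelet-derived growth factor B, which *Pdgfrb* receives, and they share a basement membrane with the endothelium. The contractile genes encode the actin and myosin apparatus of smooth muscle and its calcium-sensitive partners. Their transcription is known to depend on serum response factor, which binds the CArG box, and on myocardin and the related factors *Mkl1* and *Mkl2*. The anterior pituitary is supplied by a dense bed of fenestrated capillaries. The markers are not exclusive: fibroblasts and myofibroblasts can express *Pdgfrb* and *Acta2*, and oligodendrocyte precursors express *Cspg4*.

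All 25 mice were sh*Rb* mice. They carried a *Rosa26*-driven rtTA and a doxycycline (dox)-regulated, GFP-linked shRNA against *Rb* at *Col1a1*, so that dox in the drinking water switches the shRNA on and its removal switches it off. The line comes from 1 embryonic stem cell clone with 1 shRNA, rtTA is active in most cell types, and no mouse without dox treatment was analysed here. In the long-term experiment, pituitary lesions came from 3 mice after 6 weeks on dox (6w+dox, 3 female), 4 mice after 12 weeks on dox (12w+dox, 2 female and 2 male) and 5 mice with 6 weeks on and then 6 weeks off dox (12w-res, 3 female and 2 male), in poly(A)-enriched libraries. In the short-term experiment, tumors came from 3 mice after 16 weeks on dox (16w +dox, 3 male) and from mice 1 day (1d -dox, 4 female), 3 days (3d -dox, 3 male) and 5 days (5d -dox, 3 female) after dox removal, in rRNA-depleted libraries. Treatment began in young adults. The dox water also held sucrose, which was not added after dox removal. Levels are FPM, the number of reads on a gene scaled by the size factor of its library, and they are compared only within an experiment.

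Between 19066053 and 28968476 reads fell on genes in the long-term libraries, and between 9573101 and 13036900 in the short-term libraries. *Rb1* lay at 1.86 to 5.09 FPM in the 7 long-term mice on dox and at 16.1 to 20.3 FPM in the 12w-res mice. In the short-term mice *Rb1* lay at 3.47 to 6.03 FPM in all 4 groups, while GFP was at 1020 to 1360 FPM on dox and at 9.34 to 15.2 FPM after 5 days without it. The list of 7 genes called anterior lobe hormone genes here includes *Ghrhr*, which encodes a receptor. All 7 were detected in both experiments. Their summed level differed widely between groups, from 1220 to 94100 FPM in the long-term mice. A gene is called when limma on log2(FPM + 0.5) gives an adjusted p under 0.05 and a log2 fold change over 1 or under -1.

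Promoter sequence is shown for a contractile gene and a pericyte gene that were both called higher after 6 weeks off dox, to show which of them holds a CArG box in this window. RefSeq promoters on GRCm38.p6, each 250 bases before and 50 bases after a start site, were at hand for 5 of the 8 genes (*Rgs5*, *Cspg4*, *Abcc9*, *Acta2* and *Cnn1*). The CArG box in its strict form was in 1.63% of 32851 promoters, on either strand, and in 0 of these 5. A CArG box with 1 inner C or G was in 8.5% of promoters and, of the 5, in that of *Acta2*, which held 2 matches that do not overlap. They are printed in capitals with 10 bases on each side, at chr19:34255438-34255467 and chr19:34255388-34255417, minus strand. The matches span bases -84 to -75 and -34 to -25 before the start site.
Acta2, distal: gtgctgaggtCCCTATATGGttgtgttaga
Acta2, proximal: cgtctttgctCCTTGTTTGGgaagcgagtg
The 100 bases before the *Rgs5* start site, at chr1:169655401-169655500 on the plus strand, held no match to either form.
Rgs5: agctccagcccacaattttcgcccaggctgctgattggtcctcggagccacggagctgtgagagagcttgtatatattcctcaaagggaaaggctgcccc
The sequence GTGGGAA, which the Notch effector RBPJ binds, was in 6.38% of promoters on either strand and in 0 of the 5. A match is a description of these letters, not evidence of binding.

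Levels can be compared between the 8 genes only per length. FPM per kilobase of the longest GENCODE vM21 protein-coding transcript placed *Rgs5* first in 12w-res mice, at 68.9 to 90.1. *Acta2* followed at 40.8 to 56.2, and its range overlapped that of *Tagln*, at 35.5 to 45.3. *Pdgfrb* was lower at 8.82 to 11.2. *Abcc9* (1.65 to 2.56), *Myh11* (1.26 to 3.04) and *Cspg4* (1.55 to 2.16) overlapped each other, and *Cnn1* was lowest at 0.58 to 1.05. The order differed at 6w+dox, where *Tagln* (19.3 to 31.0) overlapped *Rgs5* (14.2 to 21.2) and *Acta2* ranged from 8.52 to 17.7. *Rgs5* was also first in each short-term group, at 6.15 to 11 in 16w +dox mice, with *Acta2* at 2.33 to 4.68 and *Pdgfrb* at 1.46 to 2.14.

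Most of these genes were called in the comparison of tumors kept on dox for 12 weeks with tumors taken off dox for the last 6 of them. The groups differ in *Rb* re-expression and also in 6 weeks of dox and sucrose, and these cannot be told apart here. All 4 pericyte genes and 3 of the 4 contractile genes were higher in 12w-res than in 12w+dox mice, with *Cnn1* the exception. The differences were 2.43-fold to 4.35-fold on the log2(FPM + 0.5) scale, and the FPM of the groups did not overlap. Of all genes tested, 6.24% were called higher in this comparison and 17.1% had higher, non-overlapping groups. The median log2 fold change of the 8 genes was 1.48, against -0.004 over all genes. The tissue was sequenced in bulk and levels are relative to the library. A larger share of mural cells in the tissue and more RNA of these genes per cell therefore cannot be told apart.

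*Rgs5* was at 177, 97.1, 75.6 and 113 FPM in the 4 12w+dox mice and at 282, 369, 305, 336 and 300 FPM in the 5 12w-res mice. The lowest 12w-res mouse stood well above the highest mouse on dox. The log2 fold change was 1.52 (SE 0.198, adjusted p = 5.49e-05). *Cspg4*, whose product NG2 lies on the pericyte surface, changed most. It was at 4.22, 2.54, 1.85 and 5.08 FPM at 12w+dox and at 12.6, 15.3, 16.5, 16.6 and 17.6 FPM in 12w-res, a log2 fold change of 2.12 (SE 0.237, adjusted p = 1.37e-05).

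*Pdgfrb*, the receptor through which pericytes are recruited, was at 25.4, 15.1, 10.2 and 23.5 FPM at 12w+dox and at 47.8, 49.5, 57.6, 57.6 and 61.0 FPM in 12w-res. Its log2 fold change was 1.62 (SE 0.212, adjusted p = 5.67e-05), and replicates 1 and 4 of the mice on dox lay closest to the 12w-res mice. *Abcc9*, which pairs with the channel pore *Kcnj8*, had the smallest gap. It was at 11.1, 5.71, 3.23 and 7.01 FPM at 12w+dox and at 17.8, 19.1, 19.2, 15.4 and 12.4 FPM in 12w-res, a log2 fold change of 1.35 (SE 0.261, adjusted p = 0.00123). *Abcc9* overlaps the antisense gene *5330439B14Rik* over 11868 bases, and strand use in counting is not given in the sources used here, so reads of the pair cannot be told apart.

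Among the contractile genes, *Acta2* changed most. It was at 45.1, 22.3, 16.8 and 33.0 FPM at 12w+dox and at 88.9, 89.3, 106, 114 and 83.1 FPM in 12w-res (log2 fold change 1.79, SE 0.26, adjusted p = 0.000134). *Acta2* shares long stretches of near-identical coding sequence with *Actg2* and *Acta1*. Multimapping reads were tallied outside the genes in the short-term experiment. How such reads were counted in the long-term libraries is not given. *Tagln*, an actin-binding protein, was at 37.1, 17.3, 19.9 and 23.4 FPM and then at 68.7, 56.6, 69.2, 72.3 and 56.7 FPM (log2 fold change 1.44, SE 0.199, adjusted p = 8.78e-05). *Tagln* overlaps *Gm48529* over 3627 bases and *Pcsk7* over 108 bases, each on the opposite strand.

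*Myh11*, the most specific of these for smooth muscle, was at 6.98, 4.61, 4.40 and 5.95 FPM at 12w+dox and at 8.27, 13.6, 14.6, 19.9 and 15.4 FPM in 12w-res. The groups did not overlap in FPM, and the log2 fold change was 1.28 (SE 0.229, adjusted p = 0.000685). *Cnn1* was at 1.74, 0.729, 0.832 and 1.37 FPM and at 1.66, 1.48, 2.5, 2.48 and 1.38 FPM, which overlapped, and its log2 fold change of 0.54 was not called (SE 0.253, adjusted p = 0.107). Between 25 and 77 reads of *Cnn1* were counted per long-term library. The same 7 genes were called whichever of the 9 mice was left out. When libraries were scaled by their totals of reads on genes in place of size factors, the median of all genes shifted from -0.004 to -0.606, all 8 fold changes stayed above 0, and 2 were called, *Cspg4* (1.52) and *Acta2* (1.14), against 1.59% of genes called higher. The other 6 then ran from 0.05 for *Cnn1* to 0.97 for *Pdgfrb*. On levels scaled by these totals, the groups overlapped for *Abcc9* and *Myh11* at least.

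**Figure D1:**
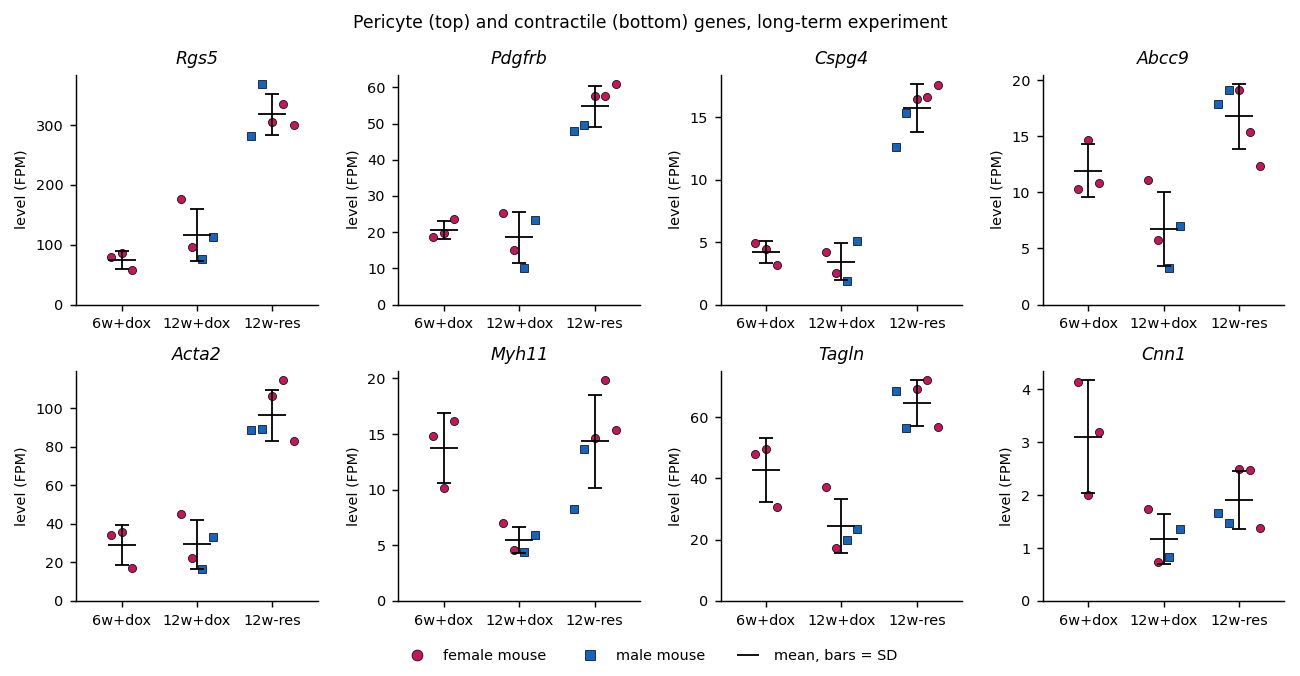
Level of the 8 genes (FPM, vertical axes from 0) in each long-term mouse at 6w+dox (3 mice), 12w+dox (4) and 12w-res (5). Points are mice, circles female and squares male, with the group mean and SD in black. In 12w-res every mouse stood above every 12w+dox mouse for 7 genes, while *Myh11* and *Cnn1* were lower at 12w+dox than at 6w+dox.

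The comparison of 12w-res with 6w+dox, the stage at which dox was withdrawn, separated the genes. *Rgs5*, *Cspg4*, *Acta2* and *Pdgfrb* were called higher (4 of 8, against 5.81% of all genes), whereas *Abcc9*, *Myh11*, *Tagln* and *Cnn1* were not. *Rgs5* was at 80.3, 86.8 and 58.2 FPM at 6w+dox, and its log2 fold change to 12w-res was 2.09 (SE 0.216, adjusted p = 7.72e-06). The lowest 12w-res mouse, at 282 FPM, stood far above the highest 6w+dox mouse.

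*Cspg4* at 6w+dox was at 4.95, 4.45 and 3.19 FPM, *Acta2* at 34.4, 35.9 and 17.3 FPM, and *Pdgfrb* at 18.7, 19.9 and 23.5 FPM. Against these levels 12w-res was higher by a log2 fold change of 1.80 for *Cspg4* (adjusted p = 0.000139), 1.76 for *Acta2* (adjusted p = 0.000336) and 1.38 for *Pdgfrb* (adjusted p = 0.000459). These 4 genes were called in each of the 8 fits that left out 1 mouse and under totals scaling. Under that scaling 497 of 15315 genes were called higher.

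*Myh11* lay at 14.8, 10.2 and 16.1 FPM at 6w+dox, within the range of the 12w-res mice, and its log2 fold change was 0.04 (SE 0.249, adjusted p = 0.926), turning to -0.28 under totals scaling. *Tagln*, at 47.9, 49.5 and 30.8 FPM, did not overlap 12w-res, as 5 of the 8 genes did not against 16.9% of all genes. Its log2 fold change of 0.62 had an adjusted p of 0.0404 and stayed under the fold minimum. It was 0.29 (adjusted p = 0.275) under totals scaling and 0.40 (adjusted p = 0.169) without 6w+dox replicate 3. *Abcc9* (10.3, 14.7 and 10.8 FPM, log2 fold change 0.47, adjusted p = 0.217) and *Cnn1* (4.13, 2 and 3.19 FPM, log2 fold change -0.57, adjusted p = 0.124) overlapped 12w-res and were not called. The 6w+dox mice were all female.

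Between 6 and 12 weeks on dox, *Myh11* and *Cnn1* were called lower (2 of 8, against 4.04% of all genes), and both had non-overlapping groups, as did 12.4% of all genes. *Myh11* fell by 1.25 on the log2 scale (SE 0.261, adjusted p = 0.00533), with all 3 values at 6w+dox above the 4 at 12w+dox. *Cnn1* fell by 1.11 (SE 0.288, adjusted p = 0.0151). *Tagln* (-0.82, adjusted p = 0.02) and *Abcc9* (-0.87, adjusted p = 0.0483) passed the adjusted p, as 12% of all genes did with lower levels, but not the fold minimum. The 6w+dox mice were all female. With sex as a covariate in limma, the adjusted p was 0.058 for *Tagln* and 0.117 for *Abcc9*, while *Myh11* and *Cnn1* stayed called. The other 4 genes were not called. Their log2 fold changes were 0.57 for *Rgs5* (adjusted p = 0.0829; 0.90 and 0.00889 under totals scaling), -0.23 for *Pdgfrb*, -0.32 for *Cspg4* and -0.02 for *Acta2*, and under totals scaling *Pdgfrb* (0.08) and *Acta2* (0.30) turned to the other side of 0.

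These 2 calls depended on the scaling and *Cnn1* also on single mice. Under totals scaling the median of all genes shifted from -0.006 to 0.29. By limma 0 of the 8 were then called, while 2.07% of all genes were called lower. *Myh11* was at -0.95 (adjusted p = 0.0257) and *Cnn1* at -0.88 (adjusted p = 0.04). In either direction, 4 of 8 had an unadjusted p under 0.05, against 43.1% of all genes. *Rgs5*, with a higher level, was 1 of the 4. *Cnn1* was not called without 12w+dox replicate 2 (-0.98) or 6w+dox replicate 1 (-0.91). Without 12w+dox replicate 1, the mouse with the highest level of 7 of the 8 genes in its group, 4 genes were called lower, with *Tagln* at -1.04 and *Abcc9* at -1.14. *Tagln* was also called without 6w+dox replicate 3.

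**Figure D2:**
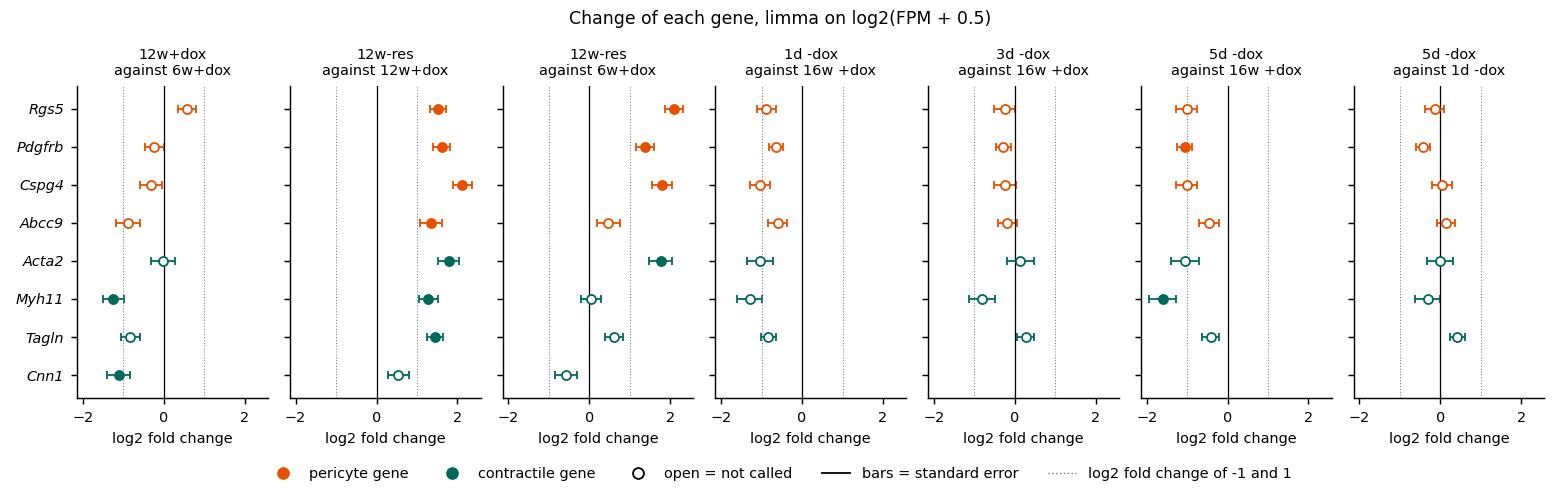
Log2 fold change of each gene in the 7 comparisons (horizontal axes, limma on log2(FPM + 0.5)), with bars for the standard error, pericyte genes in orange and contractile genes in green. Filled points were called. The 12w-res against 12w+dox panel holds 7 filled points to the right of 1, and the panels against 16w +dox hold 2, both at 5d -dox.

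Ratios within a mouse do not depend on how libraries were scaled. The sum of *Acta2*, *Myh11* and *Tagln* over the sum of the 4 pericyte genes was 0.671 to 0.85 at 6w+dox, 0.367 to 0.452 at 12w+dox and 0.352 to 0.485 in 12w-res. The 6w+dox mice stood above all others, and the later groups overlapped. *Myh11* over *Rgs5* followed the same order, at 0.117 to 0.277, 0.0394 to 0.0583 and 0.0293 to 0.0592. *Rgs5* made up 60.8% to 70.2% of the pericyte sum at 6w+dox and 76.1% to 83.2% in the later groups. These ratios use the genes tested above and are given as descriptions.

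Vessel walls can also be read against the endothelium. The pericyte genes over the sum of 16 endothelial markers were at 0.285 to 0.425 at 6w+dox, 0.742 to 1.05 at 12w+dox and 0.864 to 1.34 in 12w-res. The 6w+dox mice lay below all others, and the 12w+dox and 12w-res ranges overlapped. Most of this sum was *Rgs5*, which over the endothelial sum was at 0.173 to 0.298, 0.564 to 0.844 and 0.677 to 1.09. The other 3 pericyte genes were at 0.112 to 0.126, 0.126 to 0.203 and 0.188 to 0.287, so that 6w+dox and 12w+dox met at their edges. The contractile genes over the same endothelial sum were at 0.191 to 0.361, 0.31 to 0.421 and 0.398 to 0.581, with neighbouring groups overlapping. The pericyte sum itself overlapped between 6w+dox (95.7 to 126 FPM) and 12w+dox (90.9 to 218 FPM), while the endothelial sum did not (269 to 336 FPM and 115 to 212 FPM). Between these groups 5 of the 16 markers were called lower, led by *Plvap* (-1.745) and *Emcn* (-1.298), and 1 was above 0. *Pecam1* (-0.62) and *Cdh5* (-0.63) were not called. The weight of single markers in the endothelial sum was not tested.

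**Figure D3:**
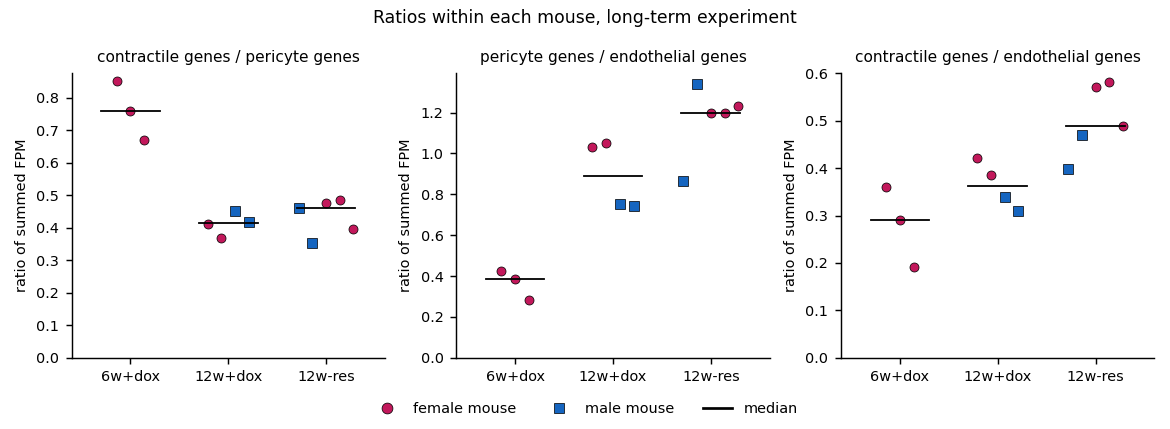
Ratios of summed FPM within each long-term mouse (vertical axes from 0), with a line at the group median. Contractile genes are *Acta2*, *Myh11* and *Tagln*, pericyte genes are *Rgs5*, *Pdgfrb*, *Cspg4* and *Abcc9*, and the endothelial sum holds 16 markers. The 3 6w+dox mice lie above the others in the left panel (0.671 to 0.85) and below them in the middle panel (0.285 to 0.425).

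Other genes of the same cells were listed by hand, with earlier results of these data known. Results for these and the following lists are given under size factors only. Under totals scaling, 244 genes in place of 955 were called higher in 12w-res against 12w+dox. Of all genes tested, 6.24% were called higher in 12w-res against 12w+dox. Of 20 other pericyte genes measured, 10 were called higher and 0 lower in 12w-res against 12w+dox, and 20 of 20 had a fold change above 0, with a median of 1.00 (-0.004 over all genes). The largest were *Ebf1*, a transcription factor of mural cells (1.58), *Mcam*, an adhesion molecule (1.56), *Des*, the muscle intermediate filament desmin (1.51), and *Kcnj8* (1.48). *Notch3*, the Notch receptor of mural cells, was also called (1.28, adjusted p = 0.0101). Of 23 other smooth muscle genes, 10 were called higher and 0 lower, led by *Mylk*, the kinase of the myosin light chain (1.75), *Synpo2* (1.57), *Aoc3* (1.53) and *Sncg* (1.49). *Actg2*, enteric smooth muscle actin, passed the adjusted p but not the fold minimum (0.86, adjusted p = 0.0157).

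From 6w+dox to 12w+dox, 6 of the 23 other smooth muscle genes were called lower and 1 higher, and 1 of the 20 other pericyte genes was called lower and 0 higher. The smooth muscle genes called lower were led by *Ppp1r14a*, an inhibitor of myosin phosphatase (-2.45), *Synpo2* (-1.45), *Sncg* (-1.45) and *Actg2* (-1.30), while *Cald1*, caldesmon, was higher (1.14). The 1 pericyte gene was *Des* (-1.34), which smooth muscle also expresses. Medians were -0.65 for the smooth muscle list and -0.22 for the pericyte list. Of all genes tested, 4.04% were called lower. The difference between the lists was not tested.

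Factors that act on the contractile genes made up a list of 11. Of the 8 measured, 0 were called by limma in 12w-res against 12w+dox, and the median was -0.24. Of all 15315 genes tested, 955 were called higher and 772 lower, so 0 of 8 is little apart from that share. *Srf* lay at 42.1 to 50.8 FPM at 12w+dox and at 26.4 to 32.4 FPM in 12w-res, a log2 fold change of -0.64 (adjusted p = 0.000269) under the fold minimum. *Mkl1* (-0.02) and *Mkl2* (-0.13) were not called, and *Myocd*, myocardin, was not listed in the long-term table. *Elk4* was the 1 factor called at 12w+dox against 6w+dox (1.16), where 483 of 15315 genes were called higher.

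Of 19 ligands and receptors of vessel recruitment, 12 were called higher in 12w-res against 12w+dox, as were 6.24% of all genes. *Pdgfb*, the endothelial ligand of *Pdgfrb*, lay at 2.40 to 6.31 FPM at 12w+dox and at 9.21 to 12.1 FPM in 12w-res, a log2 fold change of 1.41 (adjusted p = 0.000282). The 4 largest were *S1pr3*, a sphingosine receptor (1.62), *Jag1*, a Notch ligand (1.52), *Eng*, endoglin (1.49), and *S1pr1* (1.44). *Pdgfb* had fallen by 1.04 between 6 and 12 weeks on dox (adjusted p = 0.0116), while *Pdgfrb* was not called. This fall lay close to the fold minimum and is given under size factors only. Totals scaling shifted the median of all genes in this comparison to 0.292. *Angpt2*, which loosens vessel walls, rose by 1.56 over the same interval (adjusted p = 0.00228) and was not called from 12w+dox to 12w-res (-0.14, adjusted p = 0.677).

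Markers of other cells of the tissue moved with these genes. Of all genes tested, 6.24% were called higher in 12w-res against 12w+dox. In 12w-res against 12w+dox, 11 of 16 endothelial markers were called higher (median 1.16), among them *Pecam1* (1.42) and *Cdh5* (1.56), and their sum went from 115 to 212 FPM to 317 to 417 FPM. Of 15 fibroblast markers measured, 12 were called higher (median 1.60), led by *Col1a1* (2.64) and *Col6a3* (2.28), with sums of 117 to 385 FPM and 603 to 1370 FPM, and *Dcn* was among them (1.18). Of 9 hematopoietic markers, 1 was called higher, *Lyz2* (1.60), and of 7 anterior lobe hormone genes 2 were, *Prl* (4.06) and *Gh* (2.31). The *Col1a1* locus carries the shRNA cassette in all of these mice. The part of these cells in the result was not tested.

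Oligodendrocyte precursors also express *Cspg4*, and skeletal muscle expresses related actins. The 4 precursor markers measured of 8 listed summed to 3.03 to 17.6 FPM at 12w+dox and in 12w-res, *Sox10* was at 0 to 0.158 FPM in these 9 mice, and *Olig1* and *Olig2* were not listed. *Cspg4* itself was at 1.85 to 17.6 FPM in these mice. In 12w-res against 12w+dox, 1 of the 4 precursor markers was called higher (*Pdgfra*, 1.43, which fibroblasts also express), 3 of 4 were above 0 and the median was 0.77. The 6 skeletal muscle markers measured of 10 listed summed to 5.91 to 15.1 FPM, with *Acta1* at 0.308 to 1.59 FPM, and *Ckm* was not listed. The part of either cell type in the levels of *Cspg4* or *Acta2* was not tested. From 6w+dox to 12w+dox, beside *Myh11* and *Cnn1*, 5 of 16 endothelial, 4 of 4 precursor, 6 of 9 neural lobe and 5 of 7 hormone genes were called lower, with medians of -0.59, -1.35, -2.12 and -2.86. Of 15 fibroblast markers 5 were called lower and 0 higher, but 9 were above 0 and the median was 0.15. Over all genes 4.04% were called lower. *Avp*, vasopressin of the neural lobe, went from 28.0 to 83.1 FPM to 1.31 to 3.11 FPM, and the hormone sum from 58600 to 94100 FPM to 1220 to 13000 FPM. Whether the amount of neural lobe in a sample bears on the contractile genes was not tested.

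Both sexes were present at 12w+dox and in 12w-res. The change between these groups was above 0 in both sexes for all 8 genes, at 1.25 in females and 1.80 in males for *Rgs5* and at 2.20 and 1.99 for *Cspg4*. The difference between the sexes in that change ran from -0.94 for *Abcc9* to 0.47 for *Myh11* (female minus male), and 0 of the 8 had an adjusted p under 0.05 by limma, with each at 0.999 and 0 of 8 at an unadjusted p under 0.05. Over both groups, females were higher by 0.15 to 0.39 on the log2 scale, with adjusted p of 0.835 to 0.963.

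In the short-term experiment, the first days without dox were compared with 16 weeks of continuous dox. All 7 genes listed had lower means at 1d -dox and 5d -dox than at 16w +dox, while the 3d -dox mice overlapped it for every gene. By their labels, the mice were male at 16w +dox and 3d -dox and female at 1d -dox and 5d -dox. Sex and days off dox therefore cannot be told apart in the contrasts of 1d -dox and 5d -dox with 16w +dox. The 3d -dox contrast and that of 5d -dox with 1d -dox are within 1 sex.

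*Rgs5* was at 31.8, 45.1 and 25.2 FPM at 16w +dox, at 14.4, 14.4, 21.5 and 22.2 FPM at 1d -dox, at 37.3, 24.1 and 23.6 FPM at 3d -dox and at 14.1, 22.6 and 13 FPM at 5d -dox. *Pdgfrb* was at 10.1, 11.6 and 7.94 FPM, then at 5.41, 7.73, 6.56 and 4.96, at 9.49, 6.57 and 7.93, and at 5.44, 4.16 and 3.8 FPM in the same order of groups. For both genes, every 1d -dox and 5d -dox mouse lay below every 16w +dox mouse. *Cspg4* was at 3.72, 5.02 and 3.52 FPM at 16w +dox, at 0.748, 1.71, 2.59 and 2.27 at 1d -dox, at 3.69, 3.51 and 2.86 at 3d -dox and at 1.88, 1.90 and 1.52 FPM at 5d -dox. *Abcc9* was at 5.19, 3.10 and 4.11 FPM, then at 1.70, 3.15, 2.22 and 3.18, at 5.30, 2.90 and 2.78, and at 2.78, 2.83 and 2.84 FPM. The 1d -dox mice of *Abcc9* overlapped 16w +dox and those of *Cspg4* did not.

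*Acta2* was at 4.74, 9.51 and 6.05 FPM at 16w +dox, at 1.99, 1.80, 4.51 and 4.14 at 1d -dox, at 10.6, 6.02 and 5.83 at 3d -dox and at 2.52, 4.31 and 2.14 FPM at 5d -dox. *Myh11* was at 3.82, 13.7 and 5.69 FPM, then at 2.22, 3.08, 2.99 and 1.75, at 4.08, 2.84 and 4.12, and at 1.96, 2.23 and 1.52 FPM. Replicate 2 of 16w +dox had the highest level of 6 of the 7 genes in its group and stood apart for *Myh11*. *Tagln*, with 22 to 150 reads per library, was at 1.80, 2.86 and 1.58 FPM, then at 0.851, 0.672, 1.02 and 1.15, at 3.26, 2.49 and 1.98, and at 1.40, 1.38 and 1.38 FPM.

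**Figure D4:**
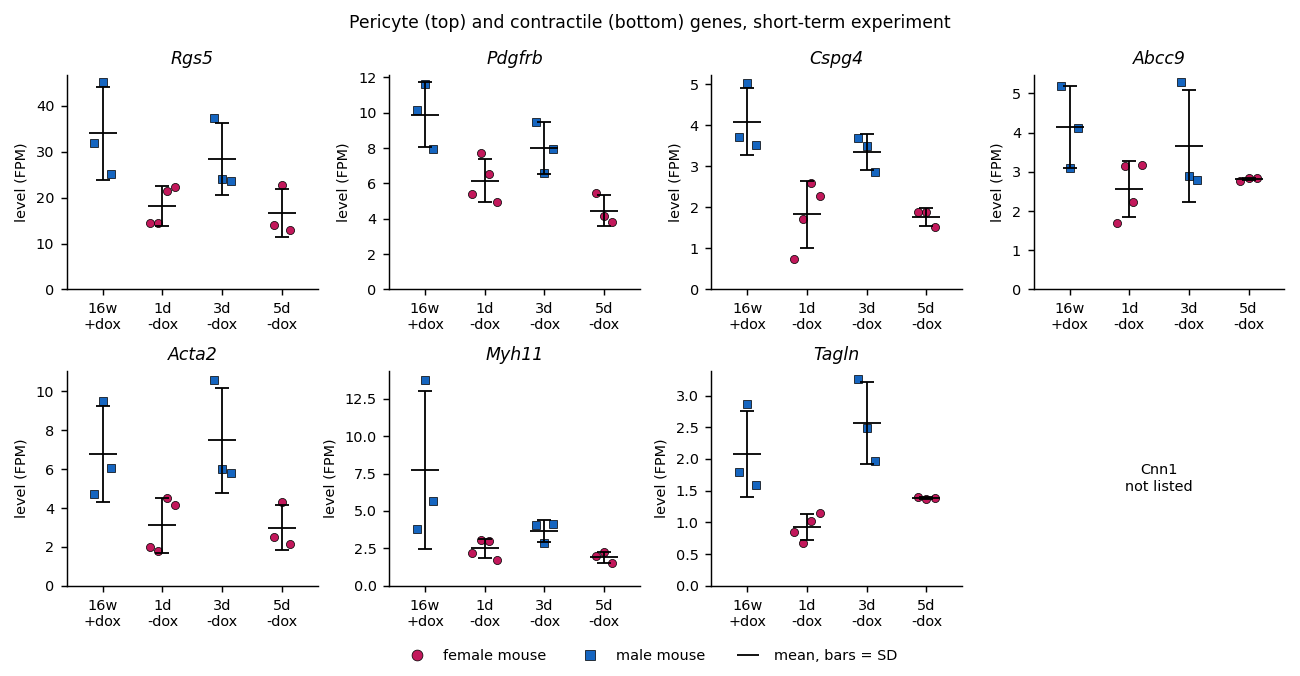
Level of 7 genes (FPM, vertical axes from 0) in each short-term mouse at 16w +dox (3 mice), 1d -dox (4), 3d -dox (3) and 5d -dox (3). Points are mice, circles female and squares male, with the group mean and SD in black, and *Cnn1* was not listed. For *Rgs5*, *Cspg4*, *Acta2* and *Tagln* all 7 female mice lie below all 6 male mice.

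At 1d -dox against 16w +dox, 0 of 7 genes were called lower by limma (0.0358% of all genes) or by edgeR, and 7 of 7 had an unadjusted p under 0.05 (13.1% of all genes). Log2 fold changes ran from -0.61 for *Abcc9* to -1.29 for *Myh11*, and 6 of 7 had lower, non-overlapping groups, against 5.6% of all genes. DESeq2 called 3 of them lower, *Myh11* (-1.63), *Cspg4* (-1.16) and *Tagln* (-1.16), against 0.603% of genes. At 5d -dox, *Pdgfrb* (-1.065, SE 0.185, adjusted p = 0.0236) and *Myh11* (-1.60, SE 0.329, adjusted p = 0.0478) were called lower, 2 of 7 against 0.107% of genes, and 7 of 7 had lower, non-overlapping groups against 9.64%.

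DESeq2 called 3 genes lower at 5d -dox, against 0.754% of genes: *Pdgfrb* (-1.15, adjusted p = 3.3e-05), *Myh11* (-2.02, adjusted p = 3.34e-05) and *Cspg4* (-1.21, adjusted p = 0.015).

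The limma calls at 5d -dox did not hold when mice were left out. With 1 mouse left out, 0 or 1 of the 2 genes was called. Without 16w +dox replicate 2, 5d -dox replicate 2 or 5d -dox replicate 3 neither was, and *Pdgfrb* then had log2 fold changes of -0.95, -1.03 and -0.97 with adjusted p of 0.0704, 0.11 and 0.1. *Pdgfrb* was also not called without 16w +dox replicate 1, at -1.04. *Myh11* was at -1.12 without 16w +dox replicate 2, and it was not called without 16w +dox replicate 3 (-1.72) or without 5d -dox replicates 1, 2 or 3 (-1.63, -1.70 and -1.48), where the fold change was close to that of all mice. Without 16w +dox replicate 1 it was called at -1.98.

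In the contrasts within a sex 0 of the 7 genes were called. At 3d -dox against 16w +dox, 0 of 7 genes were called by limma (0.129% of all genes), edgeR or DESeq2, and 0 had non-overlapping groups. By limma, 1 of 7 had an unadjusted p under 0.05, against 16.6% of all genes. It was *Myh11* (-0.81, adjusted p = 0.236, and -1.07 with adjusted p = 0.0772 by DESeq2). The other 6 ran from -0.29 for *Pdgfrb* to 0.26 for *Tagln*. At 5d -dox against 1d -dox, both female, 0 of 7 were called by limma (0.0143% of all genes) or by the other tools. By limma, 2 of 7 had an unadjusted p under 0.05, against 6.33% of all genes. They were *Pdgfrb* (-0.42, adjusted p = 0.719) and *Tagln* (0.42, adjusted p = 0.766). *Tagln* was the 1 gene with higher, non-overlapping groups, against 4.29% of all genes.

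Grouped by the sex on the labels, all 7 female mice lay below all 6 male mice for *Rgs5* (13 to 22.6 against 23.6 to 45.1 FPM), *Cspg4* (0.748 to 2.59 against 2.86 to 5.02), *Acta2* (1.80 to 4.51 against 4.74 to 10.6) and *Tagln* (0.672 to 1.40 against 1.58 to 3.26). Such a separation held for 1.25% of the 13958 genes tested. The grouping was chosen after these values were seen and carries no test.

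Other vascular genes were among the few genes called in the same contrasts, 5 lower at 1d -dox (0.0358% of all genes) and 15 lower at 5d -dox (0.107%). At 1d -dox, *Mylk* (-1.06, adjusted p = 0.0401) was the 1 call among 20 other smooth muscle genes and *Cdh5* (-1.10, adjusted p = 0.042) the 1 among 16 endothelial markers. At 5d -dox, *Notch3* (-1.27, adjusted p = 0.0376) was called among 19 other pericyte genes, and *Cdh5* (-1.22), *Flt1* (-1.19) and *Esam* (-1.04) among the endothelial markers. The endothelial sum lay at 47.8 to 74.2 FPM at 16w +dox, 29.3 to 38.3 at 1d -dox, 48.2 to 80.4 at 3d -dox and 25.3 to 31.6 FPM at 5d -dox, with both female groups below both male groups. The pericyte genes over that sum were at 0.771 to 1.06, 0.639 to 1.12, 0.523 to 0.769 and 0.766 to 1.03, which overlapped between 16w +dox and both female groups, with 3d -dox below 16w +dox. The fibroblast sum was at 89.3 to 103, 35.9 to 61.3, 62.2 to 136 and 35.2 to 66.6 FPM. The 7 anterior lobe hormone genes summed to 197 to 235, 22.9 to 105, 166 to 876 and 25.4 to 101 FPM, with median log2 fold changes against 16w +dox of -1.64 (1d -dox), 1.26 (3d -dox) and -1.96 (5d -dox). *Lhb*, a gonadotropin subunit, was called in each of these contrasts (-2.57, 1.91 and -2.65). The part of these cells was not tested.

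Correlations over mice describe how the genes varied together. They mix differences between and within groups, and the points share library scaling. Over the 12 long-term mice, the 6 pairs of pericyte genes had Pearson's r of 0.669 to 0.971 (median 0.863) on log2(FPM + 0.5), the 6 contractile pairs 0.195 to 0.874 (median 0.661) and the 16 mixed pairs -0.05 to 0.964 (median 0.728). Over the 13 short-term mice, medians were 0.7, 0.693 and 0.754. Among the other genes most like the mean of the pericyte genes in the long-term mice were *Ids*, a lysosomal sulfatase (0.991), *Col4a1* and *Col4a2*, chains of basement membrane collagen (both 0.984), and *Ppp1r9b* (0.982). In the short-term mice *Col4a2* (0.937) and *Col4a1* (0.934) led, followed by *Ehd2*, *Ednrb* and *Spag9*.

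The genes most like the mean of the contractile genes in the long-term mice were *Ltbp1*, which binds latent TGF-beta (0.966), *Npnt* (0.964), *Sod3* (0.957), *Eng* (0.953) and *Gpx8* (0.949). In the short-term mice they were *Piezo2*, a mechanosensitive channel (0.969), *Mylk* (0.954), *Nid2*, a basement membrane protein (0.951), *Hspg2*, perlecan (0.949), and *Kdr*, an endothelial receptor (0.945). No gene was on both contractile lists, and *Col4a1* and *Col4a2* were on both pericyte lists.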

How the data were processed

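Libraries were grouped by the condition and sex on their labels. The authors mapped reads to mm10 with STAR 2.5.1b, counted them on RefSeq genes (counting tool and strand use not given in the sources used here), kept genes that reached 10 reads in over 50% of a condition's samples, and deposited a signal per gene and mouse scaled by DESeq2 size factors (FPM). All values (100%) were whole multiples of 1 read within 0.1 read, so reads were recovered. In the short-term table, 4 lines without a gene (unmapped, multimapping, featureless and ambiguous reads) held 68.8% to 75% of a library and were left out.

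limma 3.58.1 (R 4.3.3) was fitted to log2(FPM + 0.5) of all groups of a table with a trended prior, and p-values were adjusted by Benjamini-Hochberg over 15315 or 13958 genes. The tests of edgeR 4.0.16 and DESeq2 1.42.0 on recovered reads were alternatives, and so were totals scaling, other pseudocounts (0.1, 1) and filters, only the groups compared, the replicate number, sex, no minimum fold, and each mouse left out. Scripts were tested on simulated data. Replicate pairs differed by more than counting error (chi-square per degree of freedom 4.01 to 228, 34 pairs). Each sample is 1 mouse, and p-values measure the spread between mice. *Cnn1* in the long-term and *Tagln* in the short-term libraries had few reads. The text names the 8 genes, up to 4 called genes of each list per comparison with the largest change, fixed defining genes, and the 5 genes most correlated with each class, of which 1 is not reported here. Genes and lists were chosen with earlier results of these data known. Coordinates are those of GRCm38.p6. The promoters of *Pdgfrb*, *Myh11* and *Tagln* were not used here.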

Additional observations from a re-analysis of the deposited data

How the results depend on the processing

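Of the fold changes of single genes under settings other than leaving out a mouse, 463 kept their direction and side of the threshold, 14 lost and 4 gained a call, and 11 turned direction. With 1 mouse left out the numbers were 341, 11, 3 and 19. The counts of called genes moved as follows. For 12w+dox against 6w+dox (2 called), 0 were called with totals of reads, 1 with a pseudocount of 1, 4 with no minimum fold and 1 to 4 with 1 mouse left out. For 12w-res against 12w+dox (7 called), 2 were called with totals of reads. For 1d -dox against 16w +dox (0 called), DESeq2 called 3. For 5d -dox against 16w +dox (2 called), 1 was called with totals of reads, 0 with a pseudocount of 1, 0 with only the 2 groups compared and 0 to 1 with 1 mouse left out, while DESeq2 called 3. Totals scaling also moved the calls over all genes, from 955 higher and 772 lower to 244 and 3364 for 12w-res against 12w+dox, from 483 and 619 to 1058 and 317 for 12w+dox against 6w+dox, from 890 and 892 to 497 and 1638 for 12w-res against 6w+dox, and from 11 and 7 to 15 and 3 for 3d -dox against 16w +dox. The cause was not tested.

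The fold changes that turned were near 0. For 12w+dox against 6w+dox, *Acta2* was 0.000303 with edgeR, 0.00325 with DESeq2, 0.299 with totals of reads, 0.118 with sex as a covariate and -0.357 to 0.205 with 1 mouse left out, and *Pdgfrb* was 0.0827 with totals of reads and -0.411 to 0.0137 with 1 mouse left out. For 12w-res against 6w+dox, *Myh11* was -0.283 with totals of reads and -0.157 to 0.214 with 1 mouse left out. For 3d -dox against 16w +dox, *Acta2* was -0.126 to 0.395 with 1 mouse left out. For 5d -dox against 1d -dox, *Cspg4* was -0.0598 with edgeR, -0.0551 with DESeq2, -0.0265 with totals of reads and -0.239 to 0.197 with 1 mouse left out, where *Abcc9* was -0.000272 to 0.247, *Acta2* -0.266 to 0.177 and *Rgs5* -0.375 to 0.012.

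Replicate numbers did not pair the mice, with correlations of deviations from the group means between -0.208 and 0.237 over 22 same-numbered pairs. With the replicate number as a block, 1 gene was called for 5d -dox against 16w +dox (2 without the block), *Myh11* turned to -0.113 for 12w-res against 6w+dox and *Acta2* to 0.14 for 5d -dox against 1d -dox. In 1d -dox against 16w +dox each of 3 mice correlated best with its own number (0.0892, 0.0983 and 0.12), a hint from the data only. Sex as a covariate was not run in the short-term experiment, where it is confounded with the groups.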
